A study of Mus musculus with 2 samples.

Results

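Ribosomes are assembled in the nucleolus, and 40 genes were examined that belong to this work or to the Myc network, which is known to drive it. The genes were taken by symbol from a written list with no limit on their values, though the list was drawn up with earlier results of these data known. It holds Myc, Mycn and Max, 3 genes of RNA polymerase I transcription, 4 nucleolar chaperones, 8 core proteins of the snoRNPs, which are complexes of small nucleolar RNA and protein, 10 factors of the small and 12 of the large ribosomal subunit. All 40 were found among 31053 genes, and 39 of them were among the 10527 genes with at least 100 unique molecular identifiers (UMIs) in both libraries together. A UMI marks 1 captured transcript, whatever its length. Mycn had 0 UMIs in both libraries, which allows up to 0.0454 CPM, the UMIs of a gene scaled to a common library total, in the oil-labelled library and 0.0495 CPM in the tamoxifen-labelled library.

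RNA polymerase I copies the ribosomal DNA into one long precursor RNA, which snoRNPs modify and which a large particle of assembly factors cuts and folds into the subunits. The transcription factor Myc, paired with Max, raises the transcription of many of these factors and of ribosomal DNA itself, and leukemia cells that divide fast are known for large nucleoli. Growth by ribosome production and progress through the cell cycle are coupled in dividing blood progenitors.

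The cells were AE9a leukemia cells, which carry a truncated AML1-ETO fusion and GFP, floxed Usp18, and a Cre recombinase, UBCER-Cre, that is expressed in all tissues and needs tamoxifen to act. They had been transplanted into adult C57BL/6 recipients, oil or tamoxifen was injected after the mice became sick, and GFP+ Lin- c-Kit+ spleen cells were sorted 3 days after the first injection and pooled over mice, so that both groups share the fusion, the Cre and the floxed allele and each group is 1 library. The genotype, Usp18f/f for the oil-labelled library and Usp18delta/delta for the tamoxifen-labelled library, disagrees with the treatment protocol, which names cells with 1 floxed allele, so the groups are called here by injection. With 1 library per group no test was possible, every interval covers counting error at 95% only, and a gene is called higher or lower when the ratio reached 1.2-fold, or 0.26 on the log2 scale.

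The targeted gene was checked first. Usp18 had 5.62 CPM in the oil-labelled library and 15.4 CPM in the tamoxifen-labelled library, so its counts were not lower where the deletion is labelled. As 3′ counts need not show a deleted exon, these counts do not tell whether the gene was deleted. Directions below are therefore between libraries as labelled. The libraries hold 6838 and 6472 cells after filtering, with medians of 8622.5 and 8209.5 UMIs per cell, and 12 cell barcodes occur in both. The progenitor markers Kit, Gata2, Myb and Runx1 were present, at 171 to 805 CPM in the oil-labelled library, whereas Ptprc and Cd34 had at most 15 UMIs per library. Markers of mast cells summed to 2226 and 1904 CPM and those of erythroid cells to 6939 and 8547 CPM. The summed markers of neutrophils, of monocytes or macrophages, of T or NK cells and of B cells were each under 8 CPM, with S100a8 and Ly6g at 0. In summed libraries, fewer cells of a type and less RNA per cell cannot be told apart.

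Myc binds the sequence CACGTG, the E-box, and promoters that hold it are shown here for the 4 members with the most UMIs among those with a match. RefSeq promoter windows on GRCm38.p6, from 250 bases before to 50 bases after a transcript start, were found for 33 of the 40 members. Of these, 6 held CACGTG (18.2%), against 8.09% of 27025 genes with a window. The motif is its own reverse complement, so both strands give the same matches. The lines below run 5′ to 3′ on the strand of the gene, from 100 bases before the start through 29 bases from it, with the E-box in capitals.
Wdr43: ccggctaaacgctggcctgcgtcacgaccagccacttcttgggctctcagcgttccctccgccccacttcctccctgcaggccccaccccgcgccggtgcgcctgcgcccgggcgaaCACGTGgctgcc
Max: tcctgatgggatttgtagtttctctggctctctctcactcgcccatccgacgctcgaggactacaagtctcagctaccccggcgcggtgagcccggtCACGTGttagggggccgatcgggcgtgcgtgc
Pes1: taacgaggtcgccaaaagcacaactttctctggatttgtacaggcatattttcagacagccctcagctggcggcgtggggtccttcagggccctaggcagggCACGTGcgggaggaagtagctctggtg
Nop2: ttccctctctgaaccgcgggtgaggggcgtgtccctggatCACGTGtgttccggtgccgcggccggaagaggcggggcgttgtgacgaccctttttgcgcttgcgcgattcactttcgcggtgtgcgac
The window of Wdr43 lies at chr17:71616115-71616243 on the plus strand, that of Max at chr12:76962220-76962348 on the minus strand, that of Pes1 at chr11:3963875-3964003 on the plus strand and that of Nop2 at chr6:125131783-125131911 on the plus strand. Counting the start as base 1 and the base before it as -1, the motif begins at 18 in Wdr43, -3 in Max, 3 in Pes1 and -60 in Nop2. Utp4 and Utp20 also held it. A match of letters is a description and not a bound site. Tcof1, Rrs1, Bop1, Myc, Rrp12, Npm1 and Fbl had no window in the table.

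Ribosome assembly genes were lower in the tamoxifen-labelled library. Together the members took 0.675% of UMIs in the oil-labelled library and 0.549% in the tamoxifen-labelled library, or 6750 CPM (6731 to 6770) and 5487 CPM (5469 to 5506). The log2 ratio of this summed level was -0.30 (-0.31 to -0.29). Of the 39 measured members, 25 were at least 1.2-fold lower (64.1%) and 0 were higher, where 16.9% of all measured genes were lower and 9.08% higher. The median log2 ratio of the members was -0.33, against -0.063 over all measured genes. Ratios of 37 members were below 0, from -0.58 for Bysl, and those of Max and Nop10 were above 0. At a fold of 1.5 in place of 1.2, 0 members were called in either direction. Bysl lay just short of that fold, and its interval of -0.68 to -0.48 reaches past it. Under other cell filters Bysl did pass it, at -0.59 with all barcodes as deposited and with mitochondrial UMIs up to 20%. With at least 1000 genes and mitochondrial UMIs up to 5%, Bysl was at -0.76 and Noc4l at -0.66.

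Other measures moved with it. The 96 ribosomal protein genes took 24.4% of UMIs in the oil-labelled library and 28.1% in the tamoxifen-labelled library, so these transcripts had the larger share where the members had the smaller. With mitochondrial and ribosomal protein genes left out of the library total, 17 members were lower and 1, Nop10, was higher, with a median log2 ratio of -0.25. Over all measured genes the median was then 0.017, and the shares called were not counted under this total. Mast cell markers were lower too, with 5 of 7 measured markers called, and 6 of 7 with phase shares held equal, where their median log2 ratio was -0.69. Other markers were higher in the tamoxifen-labelled library, with 3 of 8 erythroid markers called (Hba-a2 at 0.82, Hba-a1 at 0.58 and Alas2 at 0.56) and 1 of 4 progenitor markers, Kit at 0.44. With phase shares held equal, 3 erythroid markers were called higher but 0 progenitor markers were, with Kit at 0.17. The share of cells called G1 was 45.4% (44.2 to 46.6) and 59.9% (58.7 to 61.2), that of S 20.6% (19.6 to 21.6) and 13.9% (13.0 to 14.8), and that of G2M 34.0% (32.8 to 35.2) and 26.2% (25.1 to 27.3). Apart from the phase shares, which are held equal below, the part of these measures in the result was not tested.

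**Figure D1:**
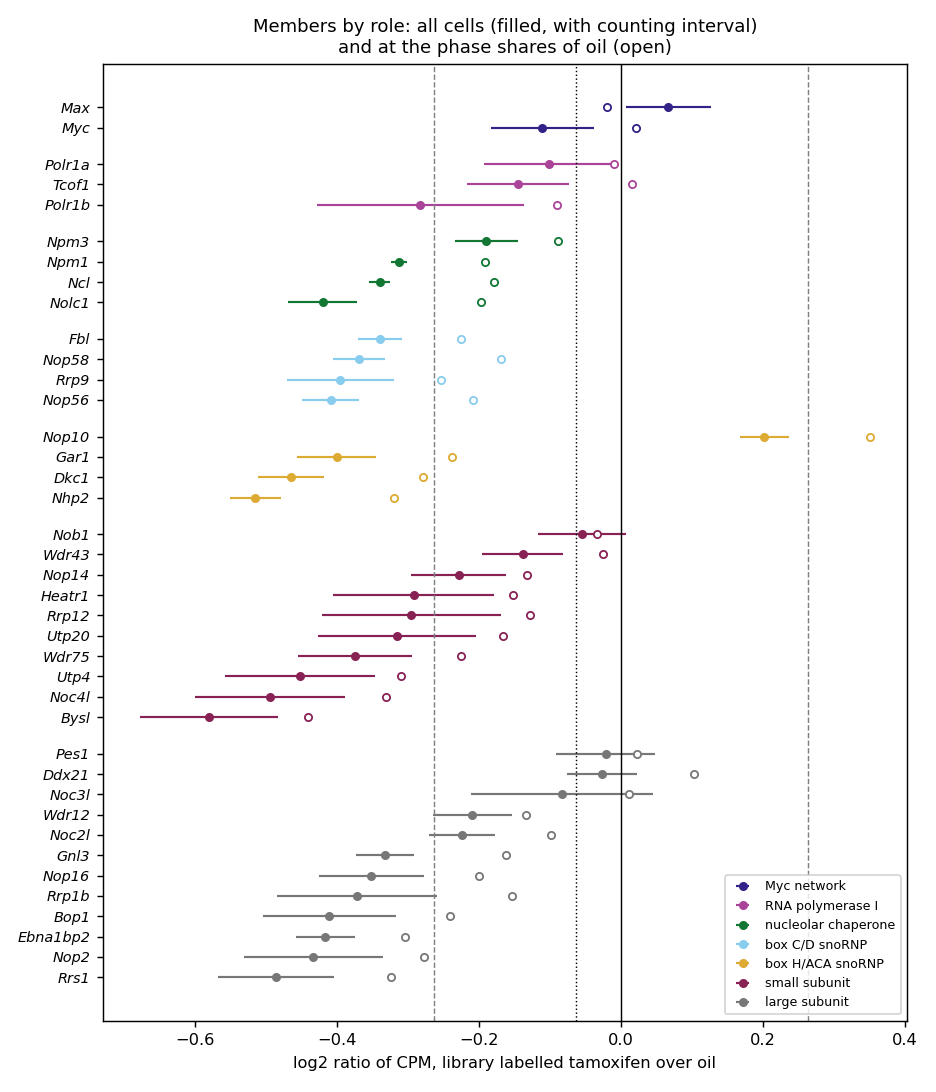
Log2 ratio of CPM between the tamoxifen-labelled and oil-labelled libraries (x axis) for the 39 measured members (y axis), grouped by role. Filled points are all cells with their 95% counting interval, open points are the ratio at the phase shares of oil, dashed lines mark 1.2-fold and the dotted line the median of all measured genes at -0.063. Filled points of 37 members lie left of 0, and 33 open points do, most of them nearer to 0.

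In the Myc network neither measured gene was called. Myc (ENSMUSG00000022346, chromosome 15, 61985391 to 61990374, plus strand, GRCm38) had 3388 UMIs or 51.3 CPM (49.6 to 53.1) in the oil-labelled library and 2882 UMIs or 47.5 CPM (45.8 to 49.3) in the tamoxifen-labelled library. The log2 ratio was -0.11 (-0.18 to -0.04), which did not reach 1.2-fold and whose interval holds the all-gene median of -0.063. Max (chromosome 12, 76937269 to 76962201, minus strand), the partner without which Myc does not bind DNA, had 4630 UMIs or 70.1 CPM (68.1 to 72.2) and 4453 UMIs or 73.4 CPM (71.3 to 75.6). Its log2 ratio was 0.07 (0.01 to 0.13). Max was the second highest member by ratio, yet under 1.2-fold. A stricter cell filter, at least 1000 genes and mitochondrial UMIs up to 5%, kept 673 and 771 cells and gave Myc a log2 ratio of -0.36 (-0.66 to -0.06), past 1.2-fold.

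Genes of RNA polymerase I transcription followed. Polr1a, the largest catalytic subunit, had 31.7 and 29.5 CPM with a log2 ratio of -0.10 (-0.19 to -0.01). Polr1b, the other catalytic subunit, had 13.7 and 11.2 CPM with a log2 ratio of -0.28 (-0.43 to -0.14). Tcof1, whose protein treacle supports transcription of ribosomal DNA, had 52.8 and 47.8 CPM with a log2 ratio of -0.14 (-0.22 to -0.07). Of the 3 genes only Polr1b was called lower, and its interval reaches past the limit on both sides. Its call was lost under TMM scaling, under median-ratio scaling and with ribosomal protein and mitochondrial genes left out of the total, at -0.24, -0.24 and -0.20. Under the stricter cell filter Tcof1 was called lower at -0.39 (-0.67 to -0.11), and Polr1a turned to 0.12 (-0.22 to 0.46).

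The nucleolar chaperones, which bind precursor RNA and carry proteins into the nucleolus, made up most of the summed level. Npm1 (chromosome 11, 33152287 to 33163206, minus strand), or nucleophosmin, had 2115 and 1703 CPM and a log2 ratio of -0.31 (-0.32 to -0.30). Ncl (chromosome 1, 86344719 to 86359400, minus strand), or nucleolin, had 1376 and 1087 CPM and a log2 ratio of -0.34 (-0.35 to -0.33). These genes held 51.7% of all member UMIs in the oil-labelled library and 50.9% in the tamoxifen-labelled library, and without them the summed log2 ratio was -0.27 (-0.28 to -0.26). Npm1 has near-identical processed copies in the genome, so its counts are less certain. Nolc1, a chaperone of snoRNPs, had 126 and 94.1 CPM and a log2 ratio of -0.42 (-0.47 to -0.37). Npm3, a relative of nucleophosmin, had 139 and 122 CPM, and its log2 ratio of -0.19 (-0.23 to -0.15) was not called, though it was under the stricter cell filter, at -0.27. With ribosomal protein and mitochondrial genes left out of the total, Npm1 and Ncl lost their calls at -0.23 and -0.26.

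Core proteins of the box C/D snoRNPs, which place methyl groups on ribosomal RNA, were all called lower and lay close together. Fbl, the methyltransferase fibrillarin, had 296 and 234 CPM with a log2 ratio of -0.34 (-0.37 to -0.31). Nop56 had 190 and 143 CPM and Nop58, its partner in the scaffold, 221 and 171 CPM, with log2 ratios of -0.41 (-0.45 to -0.37) and -0.37 (-0.40 to -0.33). Rrp9, a protein of the U3 particle, had 53.0 and 40.3 CPM with a log2 ratio of -0.39 (-0.47 to -0.32). The intervals of Nop56, Nop58 and Rrp9 overlap, so these differences among them were not detectable. Fbl lost its call, at -0.26, with ribosomal protein and mitochondrial genes left out of the total.

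The box H/ACA snoRNPs, which turn uridine into pseudouridine and are also part of telomerase, were split. Dkc1, the pseudouridine synthase dyskerin, had 143 and 104 CPM with a log2 ratio of -0.46 (-0.51 to -0.42). Gar1 had 95.7 and 72.5 CPM with a log2 ratio of -0.40 (-0.46 to -0.34). Nhp2 (ENSMUSG00000001056, chromosome 11, 51619735 to 51623714, plus strand) had 15928 UMIs or 241 CPM (237 to 245) and 10241 UMIs or 169 CPM (166 to 172). Its log2 ratio of -0.51 (-0.55 to -0.48) was the second lowest of all members. Dkc1, Gar1 and Nhp2 were called lower, whereas the remaining core protein was the highest of all members. Nop10 (ENSMUSG00000027133, chromosome 2, 112261926 to 112263269, plus strand) had 13042 UMIs or 197 CPM (194 to 201) and 13775 UMIs or 227 CPM (223 to 231). Its log2 ratio was 0.20 (0.17 to 0.24), a level higher in the tamoxifen-labelled library under every scaling tried and past 1.2-fold when ribosomal protein and mitochondrial genes were left out of the total.

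Among the 10 factors of the small subunit, 7 were called lower. Bysl (ENSMUSG00000023988, chromosome 17, 47599331 to 47611492, minus strand), which acts on late precursors of the subunit, had 2244 UMIs or 34.0 CPM (32.6 to 35.4) and 1379 UMIs or 22.7 CPM (21.5 to 24.0), and its log2 ratio of -0.58 (-0.68 to -0.48) was the lowest of all members. Noc4l had 28.1 and 19.9 CPM and a log2 ratio of -0.49 (-0.60 to -0.39), while Nop14, with which it forms a pair, had 62.5 and 53.4 CPM and a log2 ratio of -0.23 (-0.29 to -0.16). Of the factors that join the precursor first, Utp4 had 1803 and 1211 UMIs (-0.45 on the log2 scale, -0.56 to -0.35), Wdr75 45.4 and 35.0 CPM (-0.37, -0.45 to -0.29) and Heatr1 22.4 and 18.3 CPM (-0.29, -0.40 to -0.18). Wdr43, of the same subcomplex, had 82.8 and 75.2 CPM and a log2 ratio of -0.14 (-0.20 to -0.08), above the intervals of Utp4 and Wdr75. Utp20 and Rrp12, which act on the maturing subunit, had log2 ratios of -0.32 and -0.30. Nob1, the nuclease that makes the last cut of the small subunit RNA, had 68.8 and 66.2 CPM and a log2 ratio of -0.06 (-0.12 to 0.01), whose sign turned when ribosomal protein and mitochondrial genes were left out of the total. Heatr1 and Rrp12 lost their calls under each of the other scalings and under the stricter cell filter, at -0.21 to -0.26, and Utp20 under that total and that filter, at -0.23 and -0.26, while Nop14 was called under the filter, at -0.46.

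Of the 12 factors of the large subunit, 7 were called lower. Rrs1, which helps the 5S particle into the subunit, had 46.8 and 33.4 CPM with a log2 ratio of -0.49 (-0.57 to -0.40). Nop2, an RNA methyltransferase, had 31.6 and 23.4 CPM with a log2 ratio of -0.43 (-0.53 to -0.34). Ebna1bp2 had 169 and 127 CPM with a log2 ratio of -0.42 (-0.46 to -0.37), and Rrp1b, Nop16 and Gnl3, the GTPase nucleostemin, had log2 ratios of -0.37, -0.35 and -0.33. Under the stricter cell filter Rrp1b turned to 0.03 (-0.37 to 0.44) and lost its call. Noc2l and Noc3l were called lower there, at -0.36 (-0.53 to -0.19) and -0.34 (-0.78 to 0.09), and the interval of Noc3l holds 0. Gnl3 lost its call, at -0.25, with ribosomal protein and mitochondrial genes left out of the total. The members of the PeBoW complex, which processes the large subunit RNA, differed from each other. Bop1 had a log2 ratio of -0.41 (-0.50 to -0.32), Wdr12 one of -0.21 (-0.26 to -0.15) and Pes1 one of -0.02 (-0.09 to 0.05), and the 3 intervals do not overlap. Noc2l, Noc3l and Ddx21, an RNA helicase, had log2 ratios of -0.22, -0.08 and -0.03, none called. The signs of Pes1 and Ddx21 turned under TMM scaling, under median-ratio scaling and with ribosomal protein and mitochondrial genes left out of the total.

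The relation to the cell cycle was examined next, because the libraries differ in phase shares. Each cell was thinned to 3000 UMIs, which 6330 and 6127 cells reached and 508 and 345 did not, and phases were called from lists of S and G2M genes that hold no member. Of these cells, 642 and 676 lay within 0.05 of the limit of G1. Free RNA was not measured, since no cells that lack these genes were at hand, and its part in the phase calls was not tested.

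The members were far higher in S and G2M than in G1, in both libraries. In the oil-labelled library the summed level was 3626 CPM in G1, 8451 CPM in S and 7914 CPM in G2M. In the tamoxifen-labelled library it was 3516, 7818 and 6758 CPM. The log2 ratio of S over G1 was 1.22 (1.21 to 1.23) and 1.15 (1.14 to 1.17), and that of G2M over G1 was 1.13 (1.11 to 1.14) and 0.94 (0.93 to 0.95). In the oil-labelled library, 38 of 39 members were at least 1.2-fold higher in S than in G1, where 27.1% of all measured genes were, and 38 were higher in G2M, where 26.2% were. In the tamoxifen-labelled library these numbers were 37 against 27.8% and 36 against 25.9%. Cells in S and G2M are also deeper, with medians of 12694 and 12979 UMIs against 6087 in G1 in the oil-labelled library, and 13308 and 12753 against 6472 in the tamoxifen-labelled library.

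The exception was Max. It was lower in S and in G2M than in G1, with log2 ratios of -0.60 and -0.56 in the oil-labelled library and -0.53 and -0.49 in the tamoxifen-labelled library. Myc was higher in S than in G1 by 1.05 and in G2M by 0.75 on the log2 scale in the oil-labelled library, and by 1.31 and 0.60 in the tamoxifen-labelled library. The steepest members from G1 to S were Rrp1b, at 2.17 in both libraries, and Nolc1, at 1.97 and 2.11. The shallowest apart from Max were Nob1, at 0.31 and 0.17, and Pes1, at 0.38 and 0.37. By role, the summed S over G1 log2 ratio in the oil-labelled library was 1.45 for box H/ACA, 1.33 for box C/D, 1.27 for the chaperones, 1.25 for RNA polymerase I, 1.10 for the large subunit, 0.91 for the small subunit and 0.05 for the Myc network. The order of members hardly differed between libraries, with a Spearman coefficient over 39 genes of 0.92 for S over G1 and 0.96 for G2M over G1. Genes are not independent replicates.

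**Figure D2:**
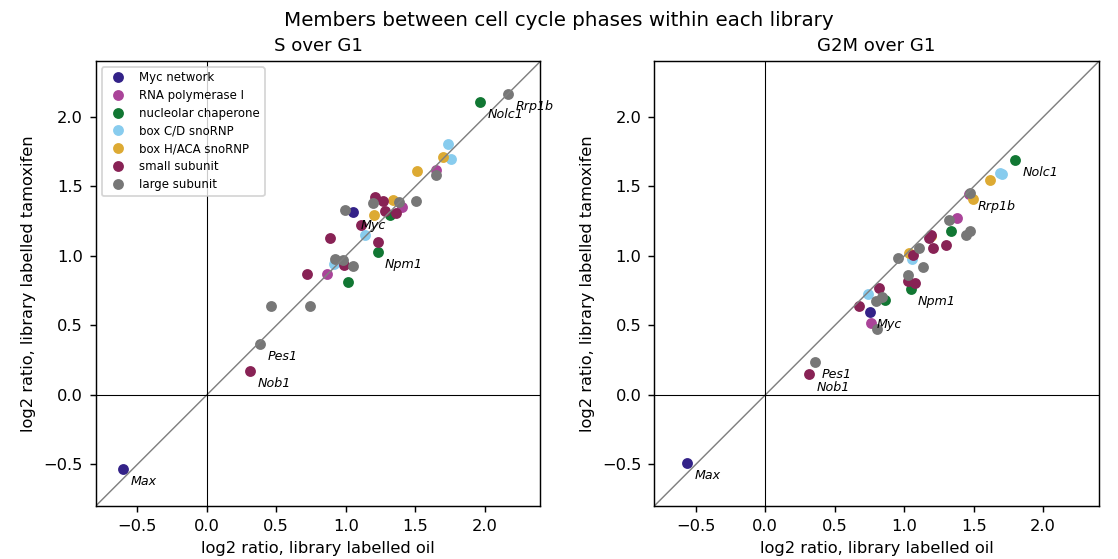
Log2 ratio of S over G1 (left) and of G2M over G1 (right) for each of 39 members, in the oil-labelled library (x axis) and in the tamoxifen-labelled library (y axis), coloured by role; the line marks equal values. Max lies below 0 on both axes, Rrp1b and Nolc1 lie highest for S over G1, and most points of the right panel lie below the line.

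Cells were also ordered by their UMIs of the S and G2M lists and divided into 5 bins over both libraries. From the lowest to the highest bin the summed members had 2943, 3354, 5604, 8426 and 8181 CPM in the oil-labelled library. The tamoxifen-labelled library gave 3023, 3339, 5205, 7701 and 6952 CPM. These sums differ least between the libraries in the lowest bins, with log2 ratios of 0.04 (0.01 to 0.06) and -0.01 (-0.03 to 0.02). They part towards the highest bins, with log2 ratios of -0.11, -0.13 and -0.23 (-0.25 to -0.22). The oil-labelled library has 23.8% of its cells in the highest bin and the tamoxifen-labelled library 16.1%.

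**Figure D3:**
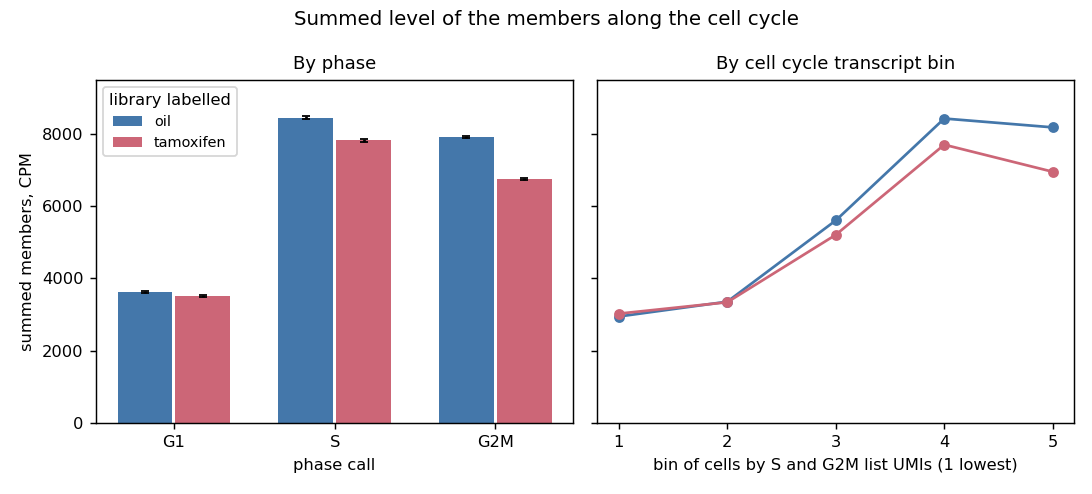
Summed CPM of the members (y axis) by phase call (left, bars from 0) and by bin of cells ordered by UMIs of the S and G2M lists (right), in the oil-labelled and tamoxifen-labelled libraries, with 95% counting intervals. Levels in S and G2M are above those in G1 in both libraries, and these sums differ least between the libraries in G1 and in bins 1 and 2.

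With the phase shares held equal, the difference between the libraries was smaller. Each phase of the tamoxifen-labelled library was given the share of UMIs that it holds in the oil-labelled library. The summed log2 ratio then was -0.16 (-0.17 to -0.15), and -0.15 with the 5 bins in place of phases. Of 39 members 8 were lower (20.5%) and 1, Nop10, was higher, where 12% and 5.87% of all measured genes were. The median of the members was -0.17 and that of all measured genes -0.081. The lower members were Bysl, Noc4l, Rrs1, Nhp2, Utp4, Ebna1bp2, Dkc1 and Nop2, from -0.44 (-0.54 to -0.34) to -0.28 (-0.38 to -0.18). Nop10 reached 0.35 (0.32 to 0.39), Ddx21 0.10 (0.05 to 0.15), and Myc 0.02 (-0.05 to 0.10). Across the members, those with a steeper S over G1 ratio in the oil-labelled library had lower ratios between libraries, with a Spearman coefficient of -0.61 and Pearson r of -0.61 over 39 genes. With phase shares held equal the values were -0.42 and -0.35. Both measures use the counts of the oil-labelled library.

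Within phases, the difference was largest in G2M. The summed log2 ratio was -0.04 (-0.06 to -0.03) in G1, -0.11 (-0.13 to -0.10) in S and -0.23 (-0.24 to -0.22) in G2M. Without Npm1 and Ncl it was -0.07 in G1, -0.07 in S and -0.20 in G2M. In G1, 6 members were lower, or 15.4%, beside 19.2% of all measured genes, and in S 2 were, or 5.13%, beside 14.6%. The shares of all measured genes include genes with few UMIs and were not matched for depth. The lower shares of the members in G1 and S therefore do not show less lowering. In G2M, 18 members were lower, or 46.2%, beside 15.6% of all measured genes. The medians of the members were -0.13, -0.08 and -0.25, and those of all measured genes -0.092, -0.067 and -0.077. Nop10 was the only member called higher in any phase, at 0.33 in G1, 0.41 in S and 0.32 in G2M, and Bysl was called lower in each, at -0.28, -0.41 and -0.50. Myc had log2 ratios of 0.00 in G1, 0.26 in S and -0.16 in G2M. Whether ratios differ between phases was not tested.

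**Figure D4:**
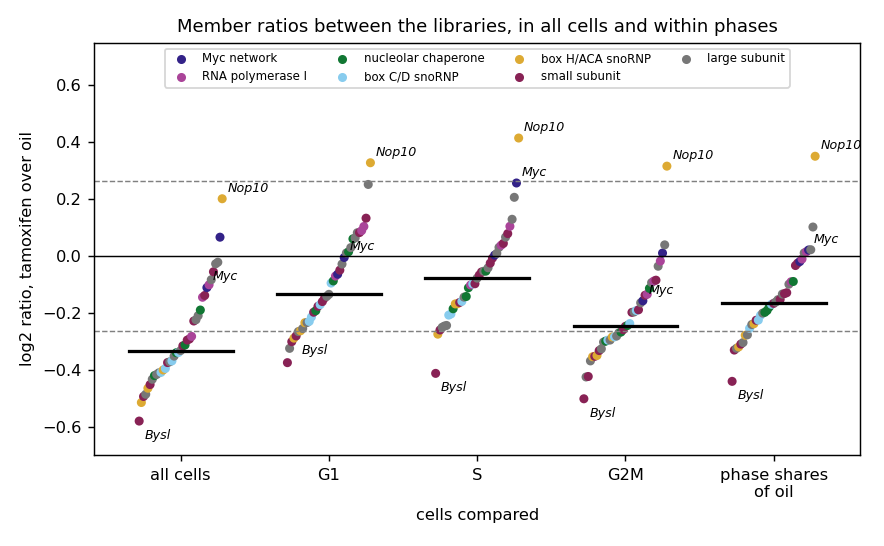
Log2 ratio between the tamoxifen-labelled and oil-labelled libraries (y axis) for 39 members in all cells, within each phase and at the phase shares of oil (x axis), with 1 point per member coloured by role, ordered by ratio within a column; black bars are medians and dashed lines mark 1.2-fold. Medians are -0.33 in all cells, -0.13 in G1, -0.08 in S, -0.25 in G2M and -0.17 at equal phase shares, and Nop10 is the highest point of every column.

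Single cells varied widely within a phase. In cells thinned to 3000 UMIs, the median number of member UMIs per cell was 8 in G1, 24 in S and 22 in G2M in the oil-labelled library, and 9, 22 and 17 in the tamoxifen-labelled library. The 5th and 95th percentiles in G1 were 3 and 21 UMIs in the oil-labelled library and 3 and 19 in the tamoxifen-labelled library. In S they were 11 and 39, and 10 and 37, so the upper end of G1 overlaps the lower part of S. The variance over the mean was between 2.92 and 3.92 within phases, where counting alone gives about 1.

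**Figure D5:**
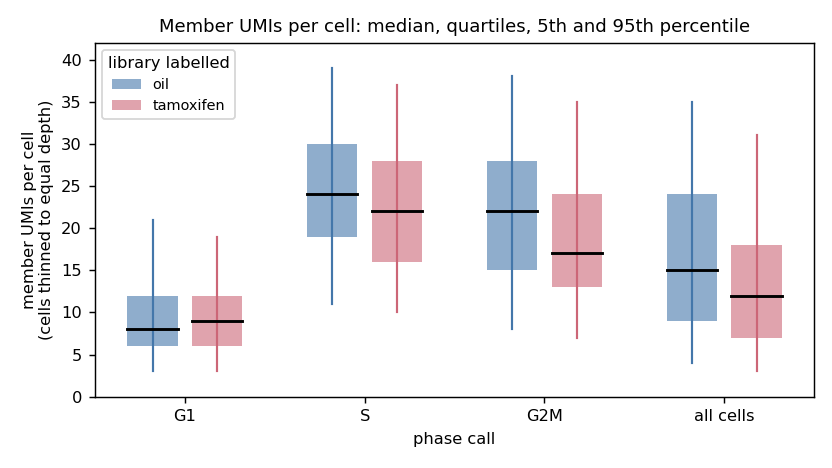
Member UMIs per cell (y axis) after thinning each cell to 3000 UMIs, by phase call (x axis), in the oil-labelled and tamoxifen-labelled libraries; lines in boxes are medians, boxes span the quartiles and thin lines the 5th to the 95th percentile. Medians are 8 and 9 in G1, 24 and 22 in S, and 22 and 17 in G2M.

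Depth went with the level inside each phase. When the cells of a phase were divided into 3 groups by their UMIs at cut points shared by the libraries, the summed level in G1 of the oil-labelled library was 2523, 2913 and 4659 CPM from the shallowest to the deepest group. The tamoxifen-labelled library gave 2468, 2829 and 4228 CPM. In G2M the deepest groups had 8954 CPM in the oil-labelled library and 7735 CPM in the tamoxifen-labelled library, and the shallowest 5890 and 5123 CPM. The oil-labelled library had the higher level in each of the 9 pairs of groups. The part of depth in the phase contrasts was not tested.

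Across cells the members went with the cell cycle genes, more closely over all cells than within a phase. Over 6330 cells of the oil-labelled library, Spearman's coefficient of summed member UMIs was 0.66 with the S list and 0.60 with the G2M list, and over 6127 cells of the tamoxifen-labelled library it was 0.58 and 0.53. The cells of a library share its preparation and, after thinning, the same total, so a larger share of one list leaves less for others, and the values are descriptions. Within phases the relation to the S list had coefficients of 0.18 in G1, 0.24 in S and 0.35 in G2M in the oil-labelled library and 0.17, 0.31 and 0.35 in the tamoxifen-labelled library. With the G2M list it was 0.22 in G1, 0.28 in S and -0.05 in G2M in the oil-labelled library and 0.16, 0.27 and -0.06 in the tamoxifen-labelled library. Summed Myc targets outside the nucleolus went with the members most closely of the lists examined, at coefficients of 0.81 and 0.74, and at 0.55 and 0.48 within G1. Mast cell markers went the other way, at -0.60 and -0.42, and progenitor markers at -0.43 and -0.35. Ribosomal protein genes had coefficients of 0.44 and 0.22. The lists differ in their counts. In the oil-labelled library the mean per thinned cell was 35.4 UMIs for the Myc targets and 700 for the ribosomal protein genes. It was 9.62 for other large subunit factors, whose coefficient was 0.58. Sparse counts lower a coefficient, so the order of the lists is a description of these counts.

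Coefficients of single members with the cycle genes are given for a few members of high and low counts. The Spearman coefficient with the S list over cells of the oil-labelled library was 0.54 for Npm1 and 0.52 for Ncl, which had at least 1 UMI in 93.8% and 87.5% of thinned cells. It was 0.34 for Nhp2, seen in 39.7% of thinned cells, and 0.12 for Bysl, seen in 8.07%. In such sparse counts a low coefficient is not a finding. Max, with a UMI in 20.6% of thinned cells, had a coefficient of -0.09.

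Cells with a Myc transcript were compared with the rest. After thinning, 11.6% of cells (10.8 to 12.4) in the oil-labelled library and 10.0% (9.28 to 10.8) in the tamoxifen-labelled library had a Myc UMI, and 29.5% and 25.2% did before thinning. The other members summed to 7726 CPM in cells with a Myc UMI and 6584 CPM in those without in the oil-labelled library, a log2 ratio of 0.23 (0.22 to 0.24), and to 6529 and 5326 CPM in the tamoxifen-labelled library, a log2 ratio of 0.29 (0.28 to 0.31). Cells with a Myc UMI were also deeper, with medians of 11549.5 against 8893.5 UMIs and 10682 against 8381 UMIs. Within G1 the log2 ratios were 0.32 (0.28 to 0.35) and 0.28 (0.25 to 0.31), within S 0.07 and 0.12, and within G2M 0.09 and 0.14. The share of cells with a Myc UMI was 7.45% in G1 and 17.7% in S in the oil-labelled library, and 7.81% and 17.3% in the tamoxifen-labelled library.

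Other genes of the pathway were set beside the members. Of 46 further small subunit factors, 20 were lower and 0 higher between the libraries, with a median log2 ratio of -0.23. Of 53 further large subunit factors, 23 were lower and 1, Nsa2 at 0.31 (0.28 to 0.35), was higher, with a median of -0.20. Further snoRNP assembly genes had 6 of 10 lower, the exosome, which trims precursor RNA, 8 of 12, and other genes of RNA polymerase I transcription 4 of 15, with medians of -0.29, -0.29 and -0.17. The share of lower genes was thus above the 16.9% of all measured genes in each of these lists. The lowest were Ltv1 at -0.45, Ddx56 at -0.55, Shq1 at -0.46, Exosc3 at -0.46 and Cd3eap at -0.40. With phase shares held equal, fewer genes of these lists were lower. In the order given these were 4 of 46, 9 of 53, 2 of 10, 1 of 12 and 2 of 15. Of all measured genes 12% were lower. The shares of the small subunit and exosome lists lay below that value, and the share of RNA polymerase I genes was close to it. The 12% includes genes with few UMIs and was not matched for depth, so a lower share does not show less lowering. The medians of these lists were then -0.14, -0.16, -0.17, -0.18 and -0.11, against -0.081 over all measured genes. The highest ratios were 0.13 for Taf1d, -0.05 for C1d, 0.02 for Nufip1 and 0.00 for Rbm19.

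Targets of Myc and its antagonists completed the set. Of 30 Myc targets outside the nucleolus, such as enzymes of nucleotide and polyamine synthesis, 22 were lower and 0 higher, with a median log2 ratio of -0.37. Their highest was Hk2 at 0.16 (-0.10 to 0.42). Their lowest was Slc19a1, the folate carrier, at -0.68 (-0.81 to -0.55), and 13 were lower at equal phase shares. In the remaining Myc network, 3 of 8 measured genes were higher and 1 lower, with a median of 0.09. Of all measured genes, 9.08% were higher and 16.9% lower. Mxd1, which pairs with Max in place of Myc, had 17.3 and 27.2 CPM and a log2 ratio of 0.65 (0.54 to 0.76). Mxd3 had 13.8 and 9.46 CPM and a log2 ratio of -0.55 (-0.70 to -0.40). At equal phase shares 1 gene of this network was higher and 0 were lower, beside 5.87% and 12% of all measured genes. The median of the network was then -0.04, with Mxd1 at 0.48 and Mxd3 at -0.23, which was no longer called. In S relative to G1 the median of this network was -0.55 in the oil-labelled library, the same direction as Max. The S list had 34 of 42 and the G2M list 41 of 54 genes lower, with medians of -0.39 and -0.36. Their lowest ratios were -0.74 for Dscc1 and -0.68 for Tubb4b and their highest 0.01 for Blm and 0.40 for Psrc1. At equal phase shares 2 genes of each list were lower, but these lists made the phase calls.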

How the data were processed

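Single cells were prepared with the Chromium V3 kit, which reads transcript 3′ ends. The authors mapped reads to mm10 with Cell Ranger 3.0.2 and deposited UMI counts per gene and cell without normalization; Seurat is named for their own analysis. Here, barcodes were kept if they had 500 or more genes and mitochondrial UMIs of 10% or less (6838 of 7774 and 6472 of 7311; 66045700 and 60661486 UMIs). No doublets were removed, and dropping the 6% of cells that Scrublet scored highest was an alternative.

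UMIs were summed per library and divided by the total to give CPM with exact Poisson intervals. Log2 ratios have exact conditional binomial intervals and shares of cells Clopper-Pearson intervals, all at 95% and for counting error only. Ratios at equal phase shares have a Poisson interval. Phases were called with scanpy on cells thinned once to 3000 UMIs, and levels used all UMIs of the same cells. The ratio step was checked on simulated counts of the tamoxifen and oil comparison, with 200 of 10527 genes changed 2-fold. The interval lay on the correct side for 99% of the changed genes and held the true value for 95.2% of all genes. The counts were drawn from a Poisson distribution, which the intervals assume, so this checks the computation only. It does not cover variation between cells or libraries, nor changes as small as those of the members.

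All 40 members are named, with full statistics for Myc and for the 2 highest and 2 lowest ratios. Other lists are given by counts, medians and the highest or lowest ratio. The members and lists were chosen with earlier results of these data known. Gene positions are from GENCODE M21 on GRCm38 and promoters from RefSeq on GRCm38.p6. Steps ran in R 4.3.3 with edgeR 4.0.16 (TMM factors only) and DESeq2 1.42.0 (median-ratio factors only), and in Python 3.11.15 with scanpy 1.11.5, scipy 1.17.1, numpy 2.4.6, matplotlib 3.10.9 and pandas 2.3.3.

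Alternatives were other cell filters, TMM, median-ratio and reduced library totals, equal weight for each cell, other UMI minimums, other thinning depths, bins in place of phases and sums without Npm1 and Ncl.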

Additional observations from a re-analysis of the deposited data

Results flagged for a closer look

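Barcodes outside the cell filter carried the members too. The 936 barcodes left out of the oil-labelled library had a summed level of 4265 CPM and the 839 left out of the tamoxifen-labelled library 3505 CPM, far above the level that 3 counts allow, with a log2 ratio of -0.28 (-0.31 to -0.25).

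Ratios of 2 members had opposite signs in a pair of phases, with intervals that exclude 0 on both sides. Myc had a log2 ratio between the libraries of 0.26 in S and -0.16 in G2M, and Wdr43 had 0.13 in G1 and -0.14 in G2M. With 1 library per group, the differences between phases were not tested.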

How the results depend on the processing

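No paired analysis was possible because a group holds only 1 library, which also leaves no replicate to drop. The summed log2 ratio of -0.30 was -0.32 under a stricter cell filter (1000 genes or more, mitochondrial UMIs up to 5%, leaving 673 and 771 cells), -0.26 under TMM and under median-ratio scaling, -0.22 without mitochondrial and ribosomal protein genes in the total, -0.27 without Npm1 and Ncl, and -0.28 as the mean of the members' log2 ratios. Leaving out mitochondrial and ribosomal protein genes also gave a median of -0.25 and 1 higher member. The median of all genes moved by 0.043 (TMM), 0.039 (median ratio) and 0.081 under these scalings. With the fold of 1.5, chosen after seeing the data, 0 members were lower, although Bysl passed it under the stricter cell filter, at -0.76. At equal phase shares the value of -0.16 was -0.17 with thinning to 5000 UMIs, -0.13 without Npm1 and Ncl, -0.14 under the stricter cell filter and -0.18 without cells under 2% mitochondrial UMIs, the last chosen after seeing the data.

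Phase contrasts kept their sign in every alternative run. S over G1 and G2M over G1 in the oil-labelled library were 1.17 and 1.10 with thinning to 2000 UMIs, 1.14 and 1.03 at 5000, 1.18 and 1.09 without Npm1 and Ncl, 1.59 and 1.36 under the stricter filter, and 1.30 and 1.19 without the highest Scrublet scores. In the tamoxifen-labelled library they were 1.11 and 0.90, 1.13 and 0.89, 1.18 and 0.96, 1.61 and 1.35, and 1.23 and 1.01 in the same order. The highest over the lowest of 5 bins gave 1.48 and 1.202 in the oil-labelled and tamoxifen-labelled libraries. Spearman's coefficient with the S and G2M lists in the oil-labelled library was 0.60 and 0.56 at 2000 UMIs, 0.68 and 0.53 at 5000, and 0.59 and 0.55 without Npm1 and Ncl. The Spearman coefficient with the G2M list was 0.58 under the stricter filter, and with the S list 0.64 on UMIs without mast cell markers, an alternative chosen after seeing the data. In the tamoxifen-labelled library the coefficient was 0.52 and 0.49 at 2000 UMIs, 0.66 with the S list at 5000, 0.53 and 0.49 without Npm1 and Ncl, and 0.56 with the S list under the stricter filter and without mast cell markers. What caused these shifts was not tested.

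Of 312 values of single members under alternatives, 248 moved by less than their counting error, and the rest by more, with 9 changes of sign, in Polr1a, Rrp1b, Nob1, Pes1 and Ddx21. Of these only Rrp1b was a called member, at 0.033 under the stricter filter. Of the 25 members called lower, 22 were lower under TMM and under median-ratio scaling, 17 without mitochondrial and ribosomal protein genes in the total and 21 under the stricter filter, which added 6, and all 25 under the other cell filters, without the highest Scrublet scores and with equal weight for each cell. Shares over all measured genes were not counted under these alternatives. Depth limits the precision most for the members with the fewest UMIs, Polr1b, Noc3l and Rrp12.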

Other observations

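The roles varied together across cells to unequal degrees. Over 6330 cells of the oil-labelled library thinned to 3000 UMIs, Spearman's coefficient of the summed nucleolar chaperones was 0.53 with the box H/ACA proteins, 0.51 with the box C/D proteins and 0.50 with the large subunit factors, and 0.31 with the small subunit factors and 0.19 with RNA polymerase I. Over 6127 cells of the tamoxifen-labelled library the values were 0.44, 0.43, 0.42, 0.25 and 0.19 in the same order. The cells share their library and total, and the roles with the fewest UMIs have the lowest coefficients, so the order is a description of these counts.

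By role, the summed level at equal phase shares had a log2 ratio between the libraries of -0.21 for box C/D, -0.18 for the chaperones, -0.15 for the small subunit, -0.14 for the large subunit and -0.07 for box H/ACA, where Nop10 offsets the others. For RNA polymerase I it was -0.01 (-0.06 to 0.05) and for the Myc network 0.00 (-0.05 to 0.05).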
